A study of Mus musculus with 18 samples.

Results

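Ago2 peaks with a miR-15/16 site are short stretches of RNA recovered with Argonaute 2 (Ago2) from mouse colonic epithelium whose deposited annotation lists a seed match to the family of miR-15-5p, miR-16-5p, miR-195-5p, miR-322-5p and miR-497-5p. They were taken as every annotated peak with an entry for that family among its 8mer, 7m8 or 7A1 matches, whatever its level or genotype. There were 293 such peaks of 5448 annotated peaks (5.38%), under 271 gene labels, and 5554 peaks in the merged list.

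The libraries were made by HEAP, a form of CLIP-seq in which Ago2 carrying a Halo tag is captured on resin after UV crosslinking, and the miRNAs and RNA fragments it held are sequenced separately. The tissue was scraped from the distal colon of C57BL/6 mice kept to an age of 8 to 12 weeks. The wild-type group (WT) was Halo-Ago2/+; Fabp-Cre/+ with a wild-type K-ras allele, and the other group (G12D) was Halo-Ago2/+; Fabp-Cre/+; K-Ras-G12D/+, so that both carried 1 tagged Ago2 allele and the Cre transgene, and the groups differed by 1 allele of oncogenic K-Ras. Each group had 3 miRNA libraries and 3 pulldown mRNA libraries. Fabp-Cre takes its name from a fatty acid binding protein promoter, and the labels do not say which of the scraped cells it reaches or whether each library came from its own mouse. P-values therefore measure the spread between these libraries, which may be technical. Input libraries were not analysed here, so more Ago2 on a site and more of its transcript cannot be told apart, and neither can fewer cells of a type and less RNA per cell.

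miR-15 and miR-16 are made from paired genes and guide Ago2 to mRNAs through bases 2 to 8 of the miRNA, the seed, which pairs with a complementary stretch of the target. Repression usually follows when the stretch lies in a 3' UTR. The family is best known for holding back the cell cycle and for lowering anti-apoptotic BCL2 proteins, and its loss is well known in chronic lymphocytic leukaemia.

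The mature sequences are shown because the shared seed defines the sites. They are RefSeq sequences on GRCm38.p6, written 5′ to 3′ with bases 2 to 8 in capitals, and the first 6 are all the family members that the miRNA table lists.
miR-16-5p: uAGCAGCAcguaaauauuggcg
miR-15a-5p: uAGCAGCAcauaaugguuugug
miR-322-5p: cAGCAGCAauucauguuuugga
miR-15b-5p: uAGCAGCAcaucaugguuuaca
miR-195a-5p: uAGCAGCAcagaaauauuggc
miR-497a-5p: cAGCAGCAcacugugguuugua
miR-103-3p: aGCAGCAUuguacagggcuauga
miR-503-5p: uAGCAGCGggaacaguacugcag
The last 2 sequences belong to neighbouring families: the seed of miR-103-3p is shifted by a base against AGCAGCA, and that of miR-503-5p ends in a different base. Of 10 mature miRNAs in the RefSeq table with the seed AGCAGCA, 6 were listed in these libraries. miR-15a-5p and 1 copy of miR-16-5p lie on chromosome 14 within Dleu2 (miR-15a-5p at chr14:61632075-61632096, minus strand). miR-15b-5p and the other copy of miR-16-5p lie on chromosome 3 within Smc4, miR-195a-5p and miR-497a-5p on chromosome 11, and miR-322-5p with miR-503-5p on chromosome X within C430049B03Rik.

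By the usual naming, an 8mer site for this family reads TGCTGCTA in the RNA's DNA letters, a 7m8 site TGCTGCT and a 7A1 site GCTGCTA. The 7A1 letters are also those of miR-503-5p. TGCTGCT overlaps a copy of itself at a shift of 3 bases, so 13 bases can hold 3 matches, and several matches in a peak need not be separate sites. In only 1 of the 293 peaks could the letters be read, because it lies within a RefSeq promoter window: the 5' UTR peak of Dbi, which encodes an acyl-CoA binding protein. The stretch covers chr1:120120991-120121008 on the minus strand (GRCm38.p6), with the 7m8 letters in capitals.
Dbi site: gcTGCTGCTtctgagctt
TGCTGCT or GCTGCTA, searched on the gene's strand, occurred in 1757 of 32851 RefSeq promoter windows (5.35%). The Dbi peak itself was faint, at 8.49, 2.90 and 0 normalized reads in the WT libraries and 3.27, 4.13 and 2.15 in the G12D libraries, and was not tested. Normalized reads here are read counts divided by 1 factor per library, as deposited.

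The family was well represented on Ago2 in both genotypes, and no member passed the test between them. miR-16-5p, the most abundant, stood at 3374, 2039.5 and 2532 normalized reads in the WT libraries and 2754, 2962 and 2484 in the G12D libraries. It ranked 43rd of 459 listed miRNAs, and its genotypes overlapped (limma log2 fold change 0.07, SE 0.24, adjusted p = 0.865). miR-15a-5p, its partner from the same transcript, stood at 1553, 1361 and 2266 in WT and 1817, 3047 and 1767 in G12D, again overlapping (0.34 ± 0.26, limma adjusted p = 0.399). Together these 2 miRNAs made up 86.9% ± 3.72 of the family in WT and 86.3% ± 0.739 in G12D, where ± is the SD over n = 3 libraries per genotype, here and below, except after a log2 fold change, where it is the SE.

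The level of miR-15b-5p was 288 ± 75.4 normalized reads for WT and 402 ± 74.6 for G12D (log2 fold change 0.49 ± 0.32, limma adjusted p = 0.336). miR-322-5p stood at 337 ± 83.3 and 363 ± 97.1. miR-195a-5p was low, at 10.6 ± 4.45 and 18.9 ± 6.86 (0.80 ± 0.46, limma adjusted p = 0.259), and miR-497a-5p lay under the minimum mean of 10 reads for the test, at 7.70 ± 3.08 and 6.58 ± 3.90. All 6 overlapped between genotypes. Of the 5 tested, limma called 0, and 0 had an unadjusted p under 0.05. edgeR and DESeq2 on the recovered reads also called 0, while 40 of all 254 tested miRNAs were called (15.7%). The median log2 fold change was 0.34 for the 5 and 0.11 for all tested miRNAs, and with every library set to the same total these became -0.02 and -0.26.

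Summed over the family, the WT libraries held 5406, 4047 and 5604 normalized reads and the G12D libraries 5247, 7005 and 4950.5. Only G12D replicate 2 lay above every WT library, and the difference of 715 was not past an exact permutation test (two-sided p = 0.6, with 0.1 the smallest p that 3 against 3 allows). As a share of all miRNA reads the family came to 1.34% ± 0.251 in WT and 1.18% ± 0.155 in G12D (exact permutation p = 0.5). Scaling the libraries to equal totals turned the sign of the summed difference.

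**Figure D1:**
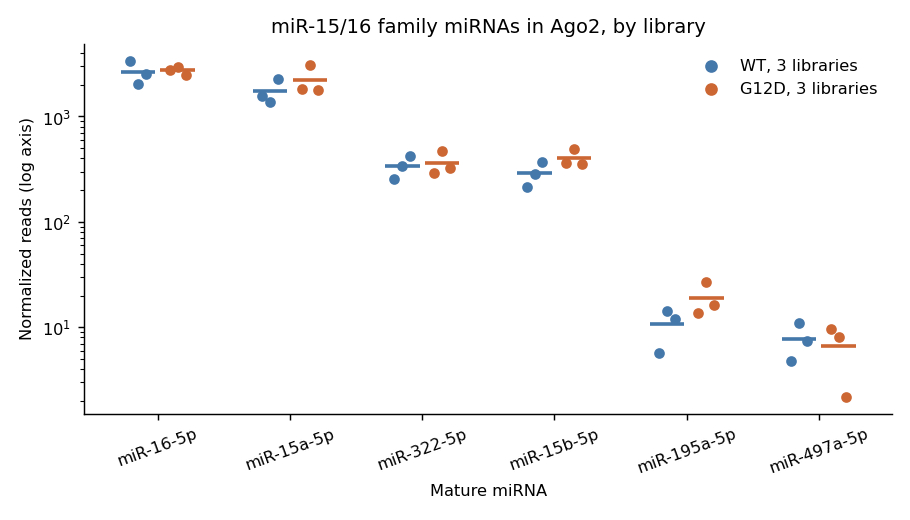
Normalized reads (log axis) of the 6 listed miR-15/16 family miRNAs in each miRNA library, with points for the 3 WT (blue) and 3 G12D (orange) libraries and bars at the group means. miR-16-5p and miR-15a-5p lie between 1361 and 3374, far above miR-195a-5p and miR-497a-5p, and the genotypes overlap for every one of the 6.

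Most of the peaks were classed to UTRs or exons. By the authors' annotation, 146 of the 293 peaks (49.8%) lay in a 3' UTR, 116 (39.6%) in an exon outside the UTRs, 15 in a 5' UTR and 12 in an intron, and 4 carried a UTR class with an asterisk that is not explained. Among all annotated peaks the shares were 54.7% for 3' UTRs and 31.4% for exons. The best match was an 8mer in 83 peaks, a 7m8 in 174 and a 7A1 in 36. The median peak width was 58 bases, against 56 for all annotated peaks. Of 7 annotated peaks that lie in a RefSeq promoter window, with chromosome 18 left aside, the Dbi peak was the 1 with a family entry and the 1 that held the letters.

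A family match often shared its peak with matches to other families. In 56 peaks (19.1%) the annotation also lists miR-103 and miR-107, whose letters overlap those of this family. The let-7 family followed with 16 peaks, miR-194-5p with 15, and miR-27-3p and miR-29-3p with 12 each. No other family was listed in 119 peaks. Where others are listed, a peak's reads cannot be assigned to this family alone, also where they are not named below. Most peaks, 256, had 1 family match; 25 had 2 and 12 had 3 or more. Itgav, an integrin alpha subunit, had 7 matches in its 3' UTR peak, and an Acvr1b intron peak and the exon peak of the selenophosphate synthetase Sephs2 had 5 each.

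**Figure D2:**
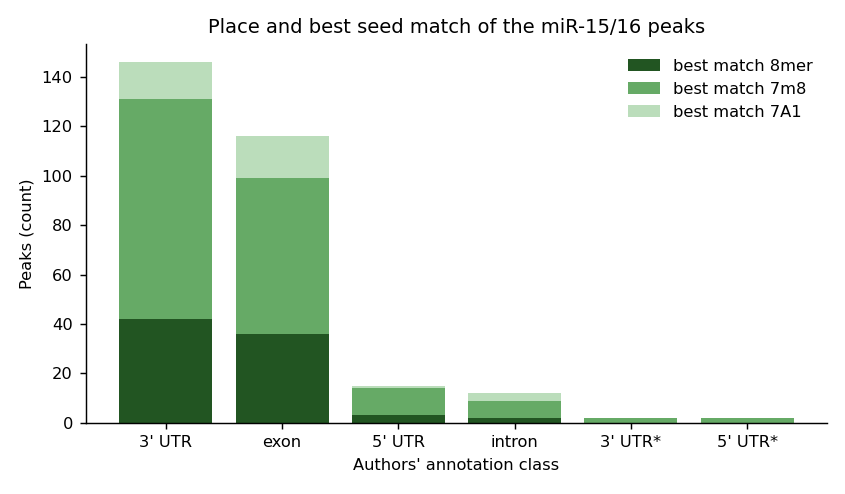
Number of miR-15/16 peaks in each of the authors' annotation classes, stacked by the best seed match of the peak. The 3' UTR bar reaches 146 peaks and the exon bar 116, and 7m8 is the most frequent best match in both.

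Depth was uneven, with 54401 to 148770 pulldown reads over all peaks in the WT libraries against 148927 to 723937 in G12D. A read was worth 1.29 to 2.90 normalized reads in WT and 0.206 to 1.09 in G12D. Markers of the labelled tissue were present, with peaks at 26 of 30 epithelial marker genes, while 1 of 32 stroma and blood marker genes, Igha, had a peak. All 7 epithelial marker miRNAs were listed, at a summed 76794 to 110348 normalized reads in WT and 108573 to 133330 in G12D. Of 5 blood and endothelial marker miRNAs 4 were listed, miR-223-3p being the exception, at a summed 552 to 743 in WT and 838 to 1077 in G12D, and miR-451a reached 0 in 1 library. The 4 muscle and stroma marker miRNAs summed to 127 to 315 and 131 to 214, with miR-1a-3p at 0 in 2 libraries. The part of these markers in the results was not tested.

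The 293 peaks took a larger share of the reads in every G12D library than in any WT library. They held 2.72%, 2.84% and 3.21% of all peak reads in WT and 3.72%, 4.51% and 4.29% in G12D, or 2.92% ± 0.252 against 4.17% ± 0.411. The difference of 1.25 percentage points has an exact permutation p of 0.1, the smallest this design allows. Of reads in peaks with any listed seed match, the share was 4.07% ± 0.329 in WT and 5.44% ± 0.568 in G12D, also without overlap. These are shares within a library, so scaling between libraries does not enter them, but they also depend on the reads in all other peaks. Summed normalized reads of the 293 peaks were 5838, 4478 and 6148 in WT and 6036, 6738 and 7625 in G12D. These sums overlapped (exact permutation p = 0.2). The median level over the 293 peaks averaged 6.20 in WT and 11.5 in G12D, beside 4.10 and 11.6 for all annotated peaks. Peaks with an 8mer accounted for 0.652 of the 1.25 points.

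The make-up of these reads by peak list is given as a description, because the authors' lists rest on the same libraries. Called only in the G12D list were 212 of the 293 peaks and 4275 of all 5554 merged peaks. Peaks called only in the authors' G12D peak list held 20.7% ± 2.20 of the reads of the 293 peaks in WT and 46.6% ± 3.18 in G12D, while peaks called in both lists held 63.8% ± 2.24 and 49.2% ± 3.08. Restricted to peaks called in both lists, in numerator and denominator, the share differed by 1.23 percentage points, with an exact permutation p of 0.2, so the libraries were no longer fully separated. Reads were spread more evenly in G12D, where the 10 strongest peaks of each library held 25.4%, 27.8% and 31.0% of the reads in the 293 peaks, against 33.3%, 33.5% and 36.2% in WT. In the order of replicates, 52, 84 and 53 of the 293 peaks had no read in the WT libraries. In the G12D libraries 3, 0 and 1 had none. In WT these were 17.7%, 28.7% and 18.1%, beside 23.3%, 33.4% and 23.9% of all merged peaks. In G12D they were 1.02%, 0% and 0.341%, beside 3.19%, 1.91% and 2.66%. The shallowest WT library had the most.

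**Figure D3:**
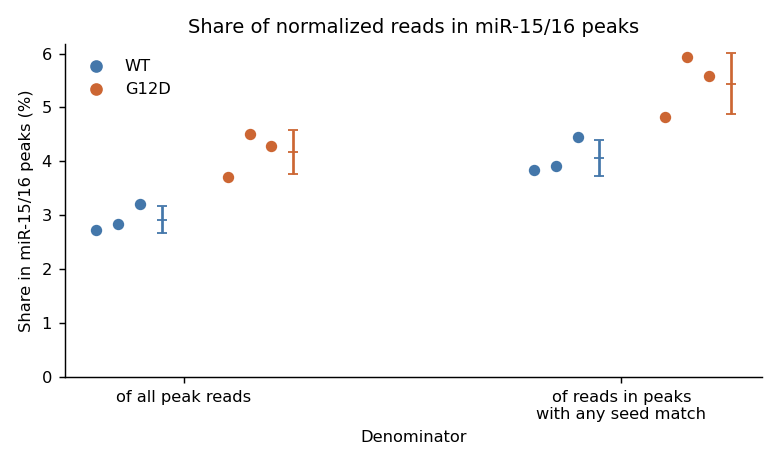
Share of normalized pulldown reads that lie in the 293 miR-15/16 peaks, in percent, for each WT (blue) and G12D (orange) library, with the mean and SD beside the points. With all peak reads as the denominator, WT lies at 2.72% to 3.21% and G12D at 3.72% to 4.51%; with peaks of any listed seed match, the libraries again do not overlap.

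More of the peaks were higher in G12D than lower, as was the case for peaks in general. Of the 293 peaks, 240 reached the mean of 5 normalized reads needed for the test and 53 did not. limma called 78 of the 240 higher in G12D (32.5%) and 28 lower (11.7%), beside 36.2% higher and 12.7% lower among all 4438 peaks tested. Both shares lie close to that background. The median log2 fold change was 0.83 for these peaks and 1.05 for all peaks tested. In 95 of the 240 all G12D libraries lay above all WT libraries and in 37 below, where the shares over all peaks are 43.9% and 15.2%. By the authors' deposited table, 94 of the 293 peaks were higher and 32 lower, beside 37.9% and 11.6% of all its peaks.

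The balance of higher and lower peaks depended on the scaling. Quantile normalization gave 43 higher and 42 lower, edgeR with TMM factors 45 and 48, and DESeq2 48 and 44. Of all peaks tested, quantile normalization called 19.7% higher and 18.1% lower, edgeR 24.6% and 20.1%, and DESeq2 25.5% and 17.4%. The same settings moved the median of all peaks from 1.05 to 0.16, 0.47 and 0.66, and that of the peaks with a site from 0.83 to 0.02, 0.29 and 0.49. Leaving out G12D replicate 1, 2 or 3 left 49, 43 and 41 higher peaks, and leaving out G12D replicate 2 left 16 lower. Of all peaks, the same fits called 25.7%, 22.0% and 22.3% higher, and 9.76% lower without G12D replicate 2. No called peak was called in the opposite direction under any of these alternatives.

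Of the 78 higher peaks, 48 had a WT mean below 5 and passed the filter only through G12D, and of the 28 lower peaks 7 had a G12D mean below 5. Their counts and medians, here and in the gene lists, are descriptions.

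Calls followed the list in which a peak was found, which rests on the same libraries and is given as a description. Of the 159 tested peaks called only in G12D, 66 were higher (41.5%) and 0 lower, beside 47.0% and 0.663% of all such peaks. Of 21 called only in WT, 0 were higher and 13 lower (61.9%), beside 0.676% and 74.3% of all such peaks. Of 60 called in both, 12 were higher and 15 lower, beside 13.9% and 25.6% of all such peaks. Their median was -0.39, beside -0.45 for all such peaks. Fitted by themselves, the 60 gave 8 higher and 13 lower, beside 12.7% and 25% of all 828 peaks in both lists. In 3' UTRs 41 of 116 were higher and 10 lower, beside 37.7% and 6.81% of all 3' UTR peaks (median 1.14 against 1.23). In exons 28 of 103 were higher and 17 lower, beside 28.7% and 18.6% of all exon peaks (0.56 against 0.61). By level, 33 of 93 peaks with a mean of 5 to 10 normalized reads were higher and 1 lower, beside 42.2% and 2.58% of all peaks at that level. Of 78 with a mean of at least 20, 28 were higher and 22 lower, beside 31.8% and 26.6%. By best match, the median was 0.99 for 69 peaks with an 8mer, 0.77 for 145 with a 7m8 and 0.50 for 26 with a 7A1. The 48 tested peaks that also list miR-103 and miR-107 had a median of 0.79 and the other 192 of 0.86.

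The 12 intron peaks were nearly empty in WT. Summed over them, the WT libraries held 4.25, 14.5 and 7.73 normalized reads and the G12D libraries 128, 128 and 147. The 5 that passed the filter were all called higher, in Sytl2, Cryl1, Acvr1b, Lpp and Plekha6. They could pass only through G12D, where they are high, so their count supports nothing further. Among all tested intron peaks 180 of 275 were higher.

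**Figure D4:**
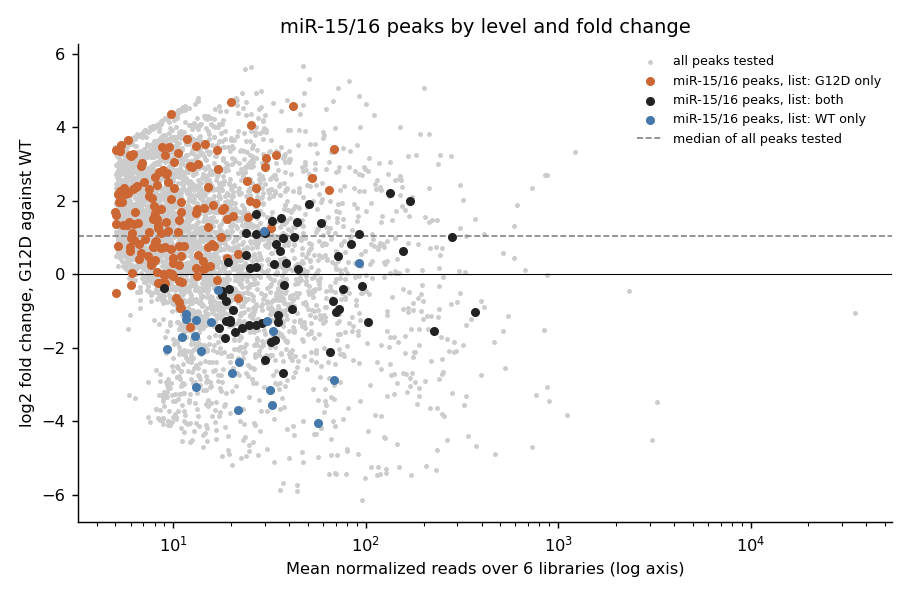
Log2 fold change of G12D against WT for each tested peak, plotted against its mean over the 6 pulldown libraries (log axis). Grey points are all tested peaks, and coloured points the 240 miR-15/16 peaks by the genotype list they were called in. The dashed line is the median of all tested peaks, 1.05. The G12D-only peaks reach up to 4.70, and the WT-only peaks reach down to -4.05.

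The strongest peak lay in an exon of Hmgcs1 (chr13:119701159-119701212), which encodes the HMG-CoA synthase of the cholesterol pathway. With a 7A1 match and a let-7 8mer, it stood at 537, 484 and 464 normalized reads in the WT libraries and 201, 227 and 310.2 in the G12D libraries. All G12D libraries lay below WT, and the peak was lower (log2 fold change -1.03 ± 0.33, limma adjusted p = 0.0234). The call was lost in 5 of 18 alternatives: with quantile normalization (-0.53, limma adjusted p = 0.124), without the variance trend (limma adjusted p = 0.089), and without WT replicate 1 (0.055), G12D replicate 1 (0.095) or G12D replicate 2 (0.077). Next came an exon peak of Anks4b (chr7:120182017-120182075), a brush border protein, with an 8mer and a further 7m8 match. It read 189, 151 and 189 in WT and 213, 377 and 575 in G12D. The groups did not overlap, although G12D replicate 1 lay close to WT (1.03 ± 0.39, limma adjusted p = 0.0473). That call was lost in 11 of 18 alternatives, with limma adjusted p of 0.079 to 0.193 when any WT library, G12D replicate 2 or G12D replicate 3 was left out.

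Saa1, an acute phase protein made by gut epithelium, had an exon peak (chr7:46741262-46741318) at 382, 203 and 445 in WT and 82.9, 122 and 133 in G12D. Every G12D library was lower (-1.55 ± 0.38, limma adjusted p = 0.00615). In the opposite direction, the exon peak of Cpeb4 (chr11:31931392-31931449), a cytoplasmic polyadenylation factor, went from 40.3, 55.1 and 42.5 to 162, 213 and 294. It had a 7A1 match beside 8mers for miR-27-3p and miR-200-3p/429-3p, and was higher without overlap (2.22 ± 0.35, limma adjusted p = 5.18e-04). Of the other strong peaks, the Pcgf3 3' UTR peak (Pcgf3 is a Polycomb RING finger protein) had means of 124 ± 32.1 and 188 ± 10.6. It missed the threshold (0.63 ± 0.33, limma adjusted p = 0.131). Trim36, a ubiquitin ligase, measured 152 ± 101 and 54.0 ± 19.0, with overlap (-1.29 ± 0.50, limma adjusted p = 0.0511).

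The peaks with the largest rises were nearly empty in WT. Malat1, a long nuclear RNA, had an 8mer peak (chr19:5797606-5797660) at 2.12, 0 and 0 normalized reads in WT and 38.2, 57.1 and 23.0 in G12D. It rested on 1 read in WT and 344 in G12D. The mean normalized levels differed 55.7-fold. With reads pooled over the libraries of a genotype and divided by their summed scaling factors, so that deep libraries weigh most, the ratio was 76.5 (95% counting interval 13.6 to 3031). Pooled ratios and bounds below are on this second scale and differ from the ratio of the mean normalized levels. Abcb1a, which encodes the P-glycoprotein efflux pump, had an exon peak (chr5:8733659-8733712) at 4.25, 5.80 and 0 in WT and 54.5, 103 and 84.0 in G12D. It was higher without overlap (4.58 ± 0.69, limma adjusted p = 4.47e-04). S100a14, an epithelial S100 protein, had a 3' UTR peak at 0, 5.80 and 2.58 in WT and 53.4, 40.6 and 50.3 in G12D (4.07 ± 0.69, limma adjusted p = 8.41e-04). All 3 G12D libraries again stood far above WT.

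The intron peak of Sytl2, a Rab27 effector, had 0 reads in every WT library and 18.5, 22.9 and 17.2 normalized reads in G12D. In pooled reads, with a floor of 3 counts over the WT group, it was at least 11.3-fold higher. Actr2, a subunit of the actin-nucleating Arp2/3 complex, had an 8mer 3' UTR peak with 0 reads in WT and 14.2, 11.6 and 9.34 normalized reads in G12D, at least 6.08-fold higher in pooled reads by the same floor. Cd164, a sialomucin, rested on 2 WT reads, and its pooled ratio was 18.2 (95% counting interval 4.97 to 152). Intervals and floors cover counting error only. At the WT depths, peaks of this size sit near the level of a few reads.

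The largest falls were in peaks called only in WT. Hspa5, the endoplasmic reticulum chaperone BiP, had an exon peak with 2 family matches (chr2:34772345-34772409) at 48.8, 110.1 and 166 in WT and 7.63, 2.48 and 5.75 in G12D. The groups were far apart (-4.05 ± 0.54, limma adjusted p = 2.93e-04). Adh1, an alcohol dehydrogenase, had 2 matches in its 3' UTR peak (chr3:138288815-138288873), which went from 65.8, 66.7 and 50.3 to 2.18, 4.95 and 6.46 (-3.56 ± 0.49, limma adjusted p = 2.95e-04). Rdh13, a retinol dehydrogenase, went from 65.8, 37.7 and 72.2 to 5.45, 5.16 and 5.75 in its 3' UTR (-3.15 ± 0.45, limma adjusted p = 3.65e-04). In all 3 every G12D library lay below every WT library.

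Fxr2, an RNA-binding relative of the fragile X protein, had an exon peak with means of 40.8 ± 27.2 in WT and 2.54 ± 2.25 in G12D (-3.70 ± 0.75, limma adjusted p = 0.00226). Ep300, a histone acetyltransferase, had an 8mer exon peak at 23.7 ± 8.53 and 2.57 ± 2.52 (-3.08 ± 0.75, limma adjusted p = 0.00577). A peak labelled CAAA01224633.1 (chr5:137165903-137165946) stood at 123, 116 and 119 in WT and 8.72, 11.8 and 34.5 in G12D. The calls of the 12 peaks with the largest rises and falls held in every alternative in which they were tested. These peaks were picked by the size of their change in the same libraries, so this adds no support. The rising ones had WT means below 5 and passed the filter only through G12D.

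**Figure D5:**
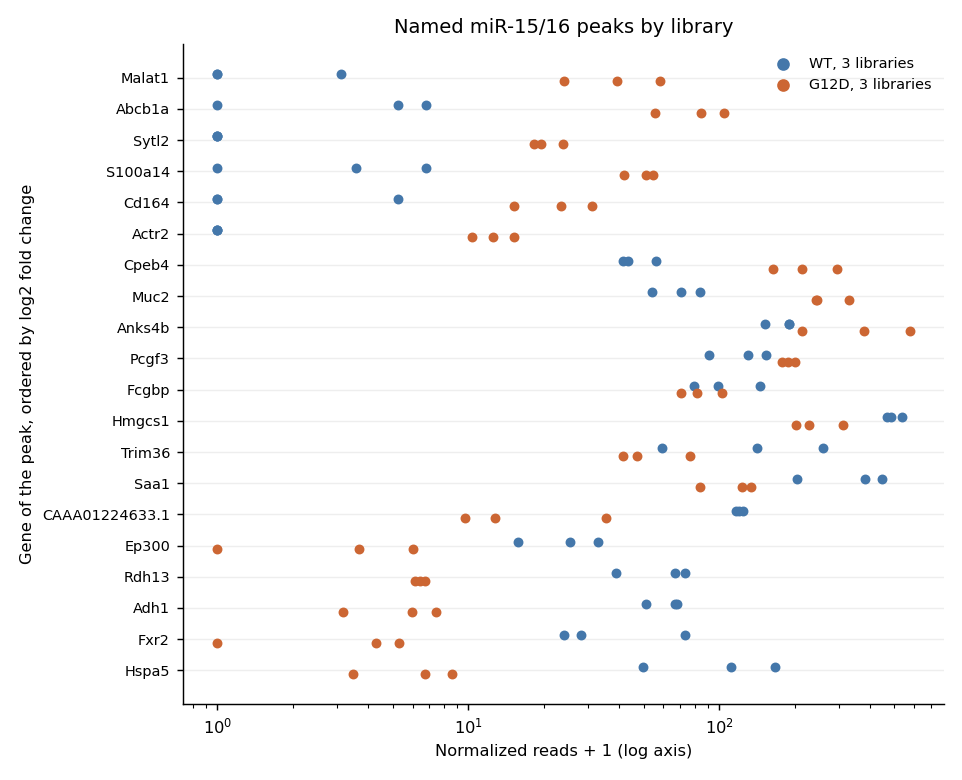
Normalized reads + 1 (log axis) in each WT (blue) and G12D (orange) library for the 8 strongest miR-15/16 peaks and the 6 with the largest rise and fall, ordered by log2 fold change. Malat1, at 2.12 or 0 in WT, stands at the top and Hspa5, at 2.48 to 7.63 in G12D, at the bottom, while Fcgbp and Trim36 overlap between genotypes.

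Of 31 genes widely described as miR-15/16 targets, 11 had any Ago2 peak and 6 had one with a family site: Smad7, Cdc25a, Mcl1, Wee1, Vegfa and Insr. Of the 5 tested, 1 was higher and 4 did not pass, with a median of 0.64, beside 12 higher and 1 lower of the 28 tested peaks of the list's genes (median 1.03). Smad7, the inhibitory SMAD of TGF-beta signalling, had an 8mer in its 3' UTR (chr18:75394421-75394469). It read 31.8, 20.3 and 14.2 in WT and 118, 90.2 and 115 in G12D, without overlap (2.30 ± 0.39, limma adjusted p = 8.09e-04). Cdc25a, the phosphatase that activates cyclin-dependent kinases, had an 8mer at chr9:109892854-109892927 that read 53.1, 23.2 and 50.3 in WT and 22.9, 43.9 and 32.3 in G12D. Its genotypes overlapped (-0.30 ± 0.44, limma adjusted p = 0.581).

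The anti-apoptotic BCL2 protein Mcl1 was the only gene of 30 on the apoptosis list with a family site. Over all 29 tested peaks of that list, 14 were higher and 1 lower. The Mcl1 3' UTR peak with the site measured 26.6 ± 8.29 in WT and 17.0 ± 6.24 in G12D and overlapped (-0.65 ± 0.47, limma adjusted p = 0.265). Of 12 tested Mcl1 peaks without a family site, 8 were higher and 0 lower (median 2.29). The kinase Wee1 measured 7.56 ± 7.13 and 11.2 ± 3.43, and Vegfa, the vascular growth factor, 5.96 ± 6.41 and 5.94 ± 1.47; neither passed the test. On the cell cycle list 4 peaks were tested, of which both in the 3' UTR of Btg2 were higher, beside 23 higher and 0 lower of the list's 41 tested peaks. Btg2 restrains proliferation and recruits deadenylases. It had 18 tested peaks without a family site, of which 13 were higher and 0 lower (median 2.41). Its 8mer peak (chr1:134076461-134076521) read 23.4, 29.0 and 21.9 in WT and 48.0, 45.4 and 56.0 in G12D (0.98 ± 0.36, limma adjusted p = 0.0415). The groups did not overlap, but the call was lost in 12 of 18 alternatives, including edgeR (0.48, adjusted p = 0.421), the thinned libraries (0.53, limma adjusted p = 0.286) and every leave-one-out fit except that without WT replicate 2 (limma adjusted p 0.074 to 0.112). Its change lay below the median of all peaks. The second peak, with a 7m8, went from 2.12 ± 3.68 to 19.1 ± 7.68 (3.29 ± 0.83, limma adjusted p = 0.00718). With 3 reads in WT and 168 in G12D, its pooled ratio was 12.5 (95% counting interval 4.19 to 61.0).

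On the TGF-beta list 3 peaks were tested and called higher, beside 6 higher and 1 lower of the 18 tested peaks of its 8 genes with any peak. Besides Smad7 these were the peaks of Acvr1b, an activin type I receptor, and both of these passed the filter only through G12D. Its 3' UTR peak (chr15:101211492-101211552) read 2.12, 5.80 and 0 in WT and 33.8, 18.2 and 13.6 in G12D (2.95 ± 0.77, limma adjusted p = 0.00866). Every G12D library lay above WT, and without G12D replicate 1 the limma adjusted p was 0.060. It rested on 3 reads in WT and 138 in G12D, a pooled ratio of 10.2 (95% counting interval 3.43 to 50.2). Its intron peak, with 5 matches, read 0, 0 and 1.29 in WT and 13.1, 11.8 and 10.8 in G12D, a pooled ratio of 18.7 on 1 WT read (95% counting interval 3.26 to 747).

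On the list of RAS and MAP kinase genes, 3 of 5 peaks were higher and 0 lower (median 1.97), beside 16 higher and 4 lower of all 37 tested peaks of the list (median 1.5). The 3 higher peaks passed the filter only through G12D. Spred1, a negative regulator of RAS signalling, had 8mers in an exon and in the 3' UTR, and both peaks were higher. The exon peak (chr2:117177857-117177917) read 6.37, 5.80 and 1.29 in WT and 18.5, 18.8 and 40.2 in G12D (2.37 ± 0.64, limma adjusted p = 0.01), and without G12D replicate 3 the limma adjusted p was 0.088. Mapk3, which encodes the kinase ERK1, had a 3' UTR peak at 0, 11.6 and 0 in WT and 14.2, 15.7 and 13.6 in G12D (2.73 ± 0.92, limma adjusted p = 0.0283). Nras measured 4.70 ± 4.13 and 11.2 ± 3.06, and Shoc2, a scaffold in RAF activation, 9.27 ± 9.69 and 19.6 ± 4.83. Neither of these last 2 passed (limma adjusted p = 0.135 and 0.122).

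In the insulin and PI3K list neither of the 2 tested peaks passed, beside 8 higher and 4 lower of the list's 38 tested peaks. The 3' UTR peak of Pik3r1, the regulatory PI3K subunit, with an 8mer, measured 2.38 ± 2.17 in WT and 7.70 ± 2.44 in G12D (1.63 ± 0.73, limma adjusted p = 0.0823), and that of Phlpp2, a phosphatase acting on AKT, with a 7m8, 8.97 ± 7.80 and 6.65 ± 1.89. Tcf7l2, the WNT transcription factor and the 1 WNT gene with a site, measured 6.46 ± 2.22 and 9.54 ± 6.06. Over all 28 tested peaks of the WNT list, 16 were higher and 1 lower. No gene of the Hippo list had a site, and 3 of its 23 genes had any peak. Ddx6, a helicase of the RNA silencing machinery, was the 1 gene of 39 on that list with a site, in its 3' UTR (chr9:44639349-44639406). The peak has a 7m8 match beside an 8mer for miR-194-5p. It read 17.0, 2.90 and 3.87 in WT and 45.8, 48.9 and 61.8 in G12D, without overlap (2.92 ± 0.59, limma adjusted p = 0.00215). Over all 35 tested peaks of the silencing list, 12 were higher and 0 lower. The 3' UTR peak of the ubiquitin ligase Itch measured 2.83 ± 4.90 and 14.0 ± 3.58 (2.80 ± 0.87, limma adjusted p = 0.0200), a call lost in 8 of 16 alternatives, among them edgeR (1.83, adjusted p = 0.099), DESeq2 (2.06, adjusted p = 0.074) and the fits without WT replicate 3 or any G12D library (limma adjusted p 0.064 to 0.088). That of Rnf10, a RING finger protein, was too low to test. Over all 18 tested peaks of the ubiquitin list, 8 were higher and 2 lower.

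Junction and epithelial genes gave 3 higher of 5 and 4 higher of 10 tested peaks, with 0 lower on either list and medians of 1.90 and 0.60. Over all peaks of the same lists 67 of 153 and 70 of 147 were higher and 14 and 15 lower, with medians of 1.51 and 1.42. Cldn7, a claudin of tight junctions, had a 5' UTR peak at 12.7, 2.90 and 5.16 in WT and 20.7, 32.0 and 23.0 in G12D. The groups did not overlap (1.90 ± 0.58, limma adjusted p = 0.0185), and the call was lost in 6 of 16 alternatives, among them edgeR (1.35, adjusted p = 0.074), quantile normalization (1.25, limma adjusted p = 0.071) and the fits without any 1 of the G12D libraries (limma adjusted p 0.056 to 0.105). Krt20, a keratin of differentiated colonocytes, measured 81.6 ± 18.7 and 103 ± 34.1 and overlapped. Fcgbp, a mucus protein of goblet cells, read 144, 78.3 and 98.0 in WT and 80.7, 102 and 69.7 in G12D, also with overlap (-0.32 ± 0.35, limma adjusted p = 0.466). Of its 8 tested peaks without a family site, 6 were higher and 0 lower (median 2.28). The higher epithelial peaks were those of Tff3, Aqp8 and 2 of Muc2. Tff3, the trefoil peptide of goblet cells, read 34.0, 29.0 and 30.9 in WT and 72.0, 78.2 and 108 in G12D (1.41 ± 0.35, limma adjusted p = 0.00608). Aqp8, a colonocyte water channel, had an 8mer exon peak at 27.6, 11.6 and 7.73 in WT and 101, 77.0 and 89.1 in G12D (2.61 ± 0.46, limma adjusted p = 0.00108). Neither peak overlapped between genotypes.

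Muc2, the gel-forming mucin of goblet cells, had the most peaks with a site, 4. The peak that the authors class as 5' UTR (chr7:141748008-141748061) has a 7m8 beside an 8mer for miR-27-3p. A Muc2 exon peak at chr7:141704160-141704202 lies upstream on the same plus strand, so the 5' UTR class is uncertain. The peak of that class read 82.8, 69.6 and 52.8 in WT and 244, 242 and 329 in G12D, without overlap (1.98 ± 0.33, limma adjusted p = 7.53e-04). An exon peak at chr7:141748974-141749038 went from 10.6, 5.80 and 2.58 to 44.7, 68.7 and 74.0 (3.24 ± 0.52, limma adjusted p = 6.06e-04). The other two did not pass, at 0.64 ± 0.42 and 0.56 ± 0.50. Muc2 had 15 tested peaks without a family site, of which 11 were higher, and their median was 2.74.

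Peaks of 1 gene could move apart. In Slc26a2, a sulfate transporter, the 3' UTR peak at chr18:61193416-61193481 read 12.7, 14.5 and 50.3 in WT and 46.9, 96.8 and 43.1 in G12D. It was called higher although the groups overlapped (1.41 ± 0.54, limma adjusted p = 0.0479). That call was not made in 12 of 18 alternatives, among them edgeR (0.67, adjusted p = 0.266) and every leave-one-out fit except that without WT replicate 3 (limma adjusted p 0.089 to 0.215). A second 3' UTR peak, at chr18:61197675-61197776, read 72.2, 75.4 and 108 in WT and 46.9, 50.1 and 54.6 in G12D, without overlap but past no threshold (-0.72 ± 0.34, limma adjusted p = 0.0934). In Ist1, an ESCRT-III related protein, the exon peak (chr8:109682612-109682674) was lower, at 48.8, 49.3 and 46.4 in WT and 18.5, 21.3 and 25.9 in G12D (-1.12 ± 0.37, limma adjusted p = 0.0259). The call was lost in 5 of 18 alternatives, with a limma adjusted p of 0.051 to 0.063 without WT replicate 1, G12D replicate 1 or G12D replicate 2, 0.052 with the same total per library and 0.065 without the variance trend. A 3' UTR peak of Ist1 was higher, from 1.29 ± 2.23 to 12.3 ± 1.92 (2.96 ± 0.73, limma adjusted p = 0.00608; with quantile normalization 1.48, limma adjusted p = 0.096). It rested on 3 reads in WT, and the pooled ratio was 6.82 (95% counting interval 2.26 to 33.7).

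Gpatch8, a G-patch protein, showed a like split. Its 8mer exon peak (chr11:102479392-102479450) was lower, at 36.1, 17.4 and 60.6 in WT and 4.36, 3.92 and 10.1 in G12D (-2.39 ± 0.58, limma adjusted p = 0.00598). Its 3' UTR peak read 14.9, 5.80 and 46.4 in WT and 41.4, 72.2 and 38.1 in G12D, with overlap (1.52 ± 0.62, limma adjusted p = 0.0605). Shisa5, a membrane protein of the endoplasmic reticulum, had 3 tested peaks with a site, of which the 1 with 3 matches was lower (-1.33 ± 0.46, limma adjusted p = 0.0301). Without any 1 library other than WT replicate 2 that limma adjusted p was 0.069 to 0.097. Its other two peaks with a site were not called, while its 3 tested peaks without a site were all higher.

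To set each site against the rest of its transcript, the peaks were compared with other tested peaks of the same gene that lack a family site, a comparison added after the data were seen. There were 145 such peaks in 129 genes. The peak with the site had a higher log2 fold change than the median of the others in 68 and a lower one in 77, with a median difference of -0.26. Of 54 peaks called higher, 37 had another peak of their gene called higher, and of 14 called lower 2 had another peak called lower. Over all tested peaks 36.2% were higher and 12.7% lower, but this is a rate per peak. The counts above need at least 1 of what can be many other peaks, 39 in Malat1. The measures are therefore unlike, and nothing is drawn from setting them side by side.

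Adh1 and Saa1 each had 1 other tested peak, which was higher in both while the peak with the site was lower. Of the reads in the site and in the tested peaks of its gene without a family site, the Adh1 site took 97.3% in WT and 31.1% in G12D, and the Ep300 site 71.6% and 3.82%. In Acvr1b the 3' UTR site went the other way, from 1.97% to 23.3%, and in Smad7 from 13.6% to 59.6%. In these 4 genes the shares of the libraries did not overlap. They are examples: of all 145 peaks compared, the G12D shares lay wholly above WT in 36 and wholly below in 37, with overlap in 72. Within Abcb1a the site held 66.7% and 81.8%, with overlap, and the other tested peak was also higher.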

How the data were processed

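HEAP miRNA and pulldown mRNA libraries of WT and G12D mice (3 each per genotype) were analysed from the deposited tables; labels gave the groups, and peak columns were taken as pulldown libraries by genotype code and replicate number. STAR 2.5.2b, DESeq2 and the builds mm10 and GRCm38 are named in the submitters' processing notes; for the peak caller and the counting rules, the sources used here give nothing. The authors deposited a signal per peak or miRNA, reads divided by 1 factor per library; with the step of each library, 100.0% of values above 0 were whole reads within 0.01. The authors' log2 fold changes and the authors' adjusted p-values come from their differential tables, per the file headers. The authors' score in the peak lists was not used. Peak class, gene label and seed matches are the authors', per the file headers; coordinates are GRCm38, counted from 1.

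limma 3.58.1 was fitted with a variance trend on log2(normalized reads + 1) over all peaks with a mean of at least 5 (4438 of 5554) and all miRNAs with a mean of at least 10 (254 of 459), with Benjamini-Hochberg adjustment and a threshold of 0.05; folds on this scale understate changes of low peaks. Libraries were compared on 1 value with a two-sided exact permutation test. A peak counted as called in a genotype list when it shared at least 1 base with it. The script was tested on simulated data. Alternatives were other pseudocounts, filters, scalings and site classes, the replicate block, no trend, edgeR 4.0.16 and DESeq2 1.42.0 on recovered reads, each library left out, and thinning (added after the data were seen). Peaks named were the 8 strongest, the 6 with the largest change in each direction without overlap, the 2 strongest per gene list and those of the 6 genes with most peaks; Wee1, Vegfa, Nras, Mapk3, Tff3, Aqp8, the Btg2 7m8 peak, and the peaks of Dbi, Itgav, Sephs2 and introns were added after their values were seen. The members and the gene lists were chosen with earlier results of these data known.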

Additional observations from a re-analysis of the deposited data

How the results depend on the processing

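Of the 78 higher and 28 lower peaks, 100 remained called with the replicate number as a block, which gave 77 and 33. Correlations of same-numbered libraries' deviations were 0.041, -0.036 and -0.008 in the pulldown and -0.0003, -0.42 and -0.32 in the miRNA libraries. Differently numbered libraries gave -0.057 to 0.071 in the pulldown and -0.21 to 0.43 in the miRNA libraries. Whether the numbers mark pairs cannot be told from 3 libraries per group. Higher peaks numbered 43 with quantile normalization, 45 with edgeR, 48 with DESeq2, 47 after thinning to the shallowest library, 29 at a mean of at least 20, 8 among peaks in both lists and 24 with an 8mer; lower peaks numbered 48 with edgeR, 44 with DESeq2, 13 in both lists and 5 with an 8mer. Of all tested peaks, 28.1% were higher after thinning, 32.3% at a mean of at least 20 and 36.7% with the block. Fits without 1 library called 22.0% to 36.8% of all peaks higher and 9.76% to 14.5% lower. Subsets hold fewer peaks, and otherwise the cause was not tested. Leaving out 1 library gave 41 to 75 higher and 16 to 35 lower, a difference in read share of 1.08 to 1.48 points, and a summed miRNA difference of 79.9 to 1107. With 8mer peaks alone the share differed by 0.652 points. The summed miRNA difference was -685 with the same total per library. The 0 called miRNAs held throughout; without WT replicate 2, 1 had an unadjusted p under 0.05.

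Over the named peaks, 674 values by setting kept direction and call, 69 lost a call and 21 gained one; 19 turned sign, all in peaks with no call. These were Krt20 (-0.24 with edgeR, -0.039 with DESeq2), the Muc2 exon peak at chr7:141704160 (-0.014 with edgeR) and the Pik3r1 peak (-0.045 with quantile normalization). The Shisa5 5' UTR peak gave -0.57 with quantile normalization, -0.80 with edgeR, -0.60 with DESeq2, -0.85 thinned and -0.61 (without WT replicate 2) to 0.67 without 1 library, and the Shisa5 3' UTR peak -0.21 with quantile normalization. Tcf7l2 gave -0.94, -0.015 and -0.071 with quantile normalization, edgeR and thinning, and -0.039 (without G12D replicate 3) to 0.67 over the fits without 1 library. Phlpp2 gave -0.048 with a pseudocount of 5, -1.22 with quantile normalization, -1.12 with edgeR, -0.88 with DESeq2 and -0.95 (without WT replicate 2) to 1.02 without 1 library. Depth limits the WT side most: in its shallowest library 1 read was worth 2.90 normalized reads.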

Other observations

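Of the 12 peaks with 3 or more family matches, 10 were tested, of which 5 were higher and 2 lower. Among all tested peaks 36.2% were higher and 12.7% lower. Itgav, with 7 matches, read 2.12, 2.90 and 0 in WT and 10.9, 13.4 and 9.34 in G12D (limma log2 fold change 2.40 ± 0.69, adjusted p = 0.0133), on 2 reads in WT (pooled ratio 9.79, 95% counting interval 2.63 to 82.1). Sephs2, with 5, went from 65.8, 34.8 and 52.8 to 12.0, 12.2 and 15.8 and was lower (-1.83 ± 0.42, limma adjusted p = 0.00408). Marveld2, the tight junction protein tricellulin, had 4 matches and was higher (2.36 ± 0.78, limma adjusted p = 0.026). These peaks were named after their values were seen.

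The miRNAs with neighbouring seeds gave values of their own. miR-103-3p, whose sites overlap those of the family, measured 1080.3 ± 275 in WT and 1624 ± 493 in G12D, with overlap (0.58 ± 0.27, limma adjusted p = 0.143). miR-503-5p measured 56.0 ± 9.82 and 55.7 ± 5.69. The other arms of the family's precursors were also on Ago2, miR-16-1-3p at 273 ± 32.7 and 284 ± 25.9 and miR-16-2-3p at 366 ± 175 and 245 ± 41.3. None of these 4 was called by limma.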
